A study of Mus musculus with 16 samples.

Results

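The 9 genes described here are markers of the Th2 and Th17 lineages of CD4+ T cells: Gata3, Il4, Il5, Il13, Il4ra, Rora, Il17a, Ccr4 and Ccr6. They were taken by symbol from the 18193 genes measured and are described in all 16 arrays. Of the 45101 probe sets on the array 19 carried one of these symbols, 3 for Il4ra, 9 for Rora and 1 for each other gene. For a gene the probe set highest in mean log2(intensity + 1) was used, so Il4ra and Rora rest on a choice among several probe sets.

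Th2 cells arise when IL-4 signals through the receptor chain encoded by Il4ra and the transcription factor Stat6 to raise Gata3, the master regulator of the lineage. They secrete IL-4, IL-5 and IL-13, which drive antibody class switching, eosinophils and mucus production. Th17 cells arise under TGF-beta and IL-6, use nuclear receptors of the ROR family, among them RORα (encoded by Rora), and secrete IL-17A, a cytokine that recruits neutrophils. The chemokine receptor CCR4 is associated with Th2 cells, and CCR6 with Th17 cells, though B cells and other T cells carry CCR6 too.

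The cells were AND T cells, CD4+ cells with a transgenic T cell receptor for a moth cytochrome c peptide. Donor lymph node cells with the CD90.1 marker were given to B10.BR recipients, and the CD4+CD90.1+ cells were sorted 60 h later. The labels give an age of 6 to 8 weeks. The groups with antigen, transient or persistent according to the doxycycline schedule, had recipients of genotype Ii-rTA+, TIM+, whose transgenes make the peptide under doxycycline control. The groups without antigen had Ii-rTA-, TIM+ recipients, and their sample titles say no doxycycline. Antigen, genotype and doxycycline therefore cannot be told apart in comparisons against them. Recipients of each regime were given FGK45.5, a stimulatory antibody against CD40 intended to activate dendritic cells, or PBS. With anti-CD40 there were 2 arrays without antigen, 2 with transient and 3 with persistent antigen, and with PBS there were 3 of each. Whether replicates were separate animals is not in the labels, and the p-values rest on the spread among these arrays, which may be technical.

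The median intensity per array lay between 18.2 and 21.3. The mean intensity was 83.5 to 101 in the 6 replicate 2 arrays, against 106 to 121 in the other 10. All 9 measured T cell markers were above the median probe set (4.37 on the log2 scale) in each group, while 6 or 7 of 9 markers of mast cells, basophils and eosinophils, which also make IL-4 and IL-13, were below it. Differences below are in log2(intensity + 1), given with the standard error from limma and with p-values adjusted over 18193 genes, and a difference was called at an adjusted p under 0.05. This scale understates the changes of dim genes. In a sorted population, fewer cells with a transcript and less transcript per cell cannot be told apart. The replicate numbers were taken, from the data, to pair the arrays. Each value is therefore also given from a fit with the replicate number as a block where this changes the call.

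The Th2 cytokine genes Il4, Il5 and Il13 lay below the median probe set in all 6 group means and passed no test in any comparison. Among the other members, in the fit with the replicate block, Il4ra fell with persistent antigen under either treatment and with transient antigen under anti-CD40, each against no antigen. In the same fit Ccr6 fell with persistent against no antigen under PBS, Ccr6 and Rora rose with anti-CD40 against PBS under transient antigen, and Rora rose with transient against no antigen under anti-CD40. Without the block, limma called 0 of the 81 pairs of a member and a comparison, and 9 had an unadjusted p under 0.05. With the block it called 7 pairs, which belonged to 3 genes, Il4ra, Rora and Ccr6. The 9 comparisons share groups, so these pairs are not independent of each other.

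Over all genes the fit without the block called 3.57% for persistent against no antigen with PBS, 0.126% for transient against no antigen with PBS and 0.929% for persistent against transient antigen with PBS. With anti-CD40 the same 3 comparisons had 2.37%, 0.572% and 0.0055%. For anti-CD40 against PBS it called 0.638% under transient antigen, 0% under persistent antigen and 0% without antigen. With the block the shares were 16.7%, 2.89% and 11.4% with PBS, 16.4%, 14% and 0.077% with anti-CD40, and 10.5%, 0% and 0.0055% for anti-CD40 against PBS in the same order. The members called with the block numbered 2 of 9 for persistent against no antigen with PBS and 1 of 9 with anti-CD40. By direction, 6.79% and 5.5% of all genes were lower in these 2, as were the members. They numbered 2 of 9 both for transient against no antigen with anti-CD40 and for anti-CD40 against PBS under transient antigen, and 0 of 9 in each remaining comparison. In the first of these Rora was among the 10.5% of genes that were higher and Il4ra among the 3.48% that were lower, and in the second both members were among the 7.59% that were higher. With 9 genes, a count of 1 or 2 lies near these backgrounds, and nothing particular to the lineage genes is read from it.

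Stretches before the transcription start are shown for Ccr6, which was called in 2 comparisons, for Il17a, the other Th17 effector gene, which was called in none, and for Il4ra, which was called in 3. They are the 250 bases before the start on the plus strand, 5′ to 3′, from RefSeq on GRCm38.p6, the C57BL/6J reference and not the B10.BR strain of these mice. All 9 members had an entry, with 2 starts for Ccr6 and Il4, and the first start of Ccr6 is shown. Capitals mark matches on either strand to AGGTCA, the core letters bound by ROR nuclear receptors.
Ccr6, chr17:8235793-8236042: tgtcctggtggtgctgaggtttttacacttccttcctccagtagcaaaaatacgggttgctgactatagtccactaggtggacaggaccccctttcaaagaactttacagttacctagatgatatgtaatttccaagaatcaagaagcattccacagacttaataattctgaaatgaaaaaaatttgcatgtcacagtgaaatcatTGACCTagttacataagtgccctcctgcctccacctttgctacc
Il17a, chr1:20730655-20730904: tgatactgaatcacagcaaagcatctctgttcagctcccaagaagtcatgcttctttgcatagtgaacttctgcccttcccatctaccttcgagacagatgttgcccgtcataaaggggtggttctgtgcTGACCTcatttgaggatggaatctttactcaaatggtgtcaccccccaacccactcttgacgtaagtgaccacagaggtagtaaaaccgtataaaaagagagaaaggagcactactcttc
Il4ra, chr7:125552021-125552270: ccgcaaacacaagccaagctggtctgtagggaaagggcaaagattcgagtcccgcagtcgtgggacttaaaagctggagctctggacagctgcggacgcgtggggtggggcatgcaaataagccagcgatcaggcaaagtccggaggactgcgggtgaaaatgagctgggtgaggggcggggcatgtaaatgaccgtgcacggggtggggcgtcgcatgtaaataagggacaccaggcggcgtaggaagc
The Ccr6 match to AGGTCA, on the minus strand, lay 44 to 39 bases before the start, and the Il17a match, also on the minus strand, lay 120 to 115 bases before it. No other window of the members held AGGTCA, Il4ra and the second start of Ccr6 included. Of the 32851 such mouse windows counted, which do not cover every chromosome, 14% hold it, so a match is a description of these letters and not a site in use.

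**Figure D1:**
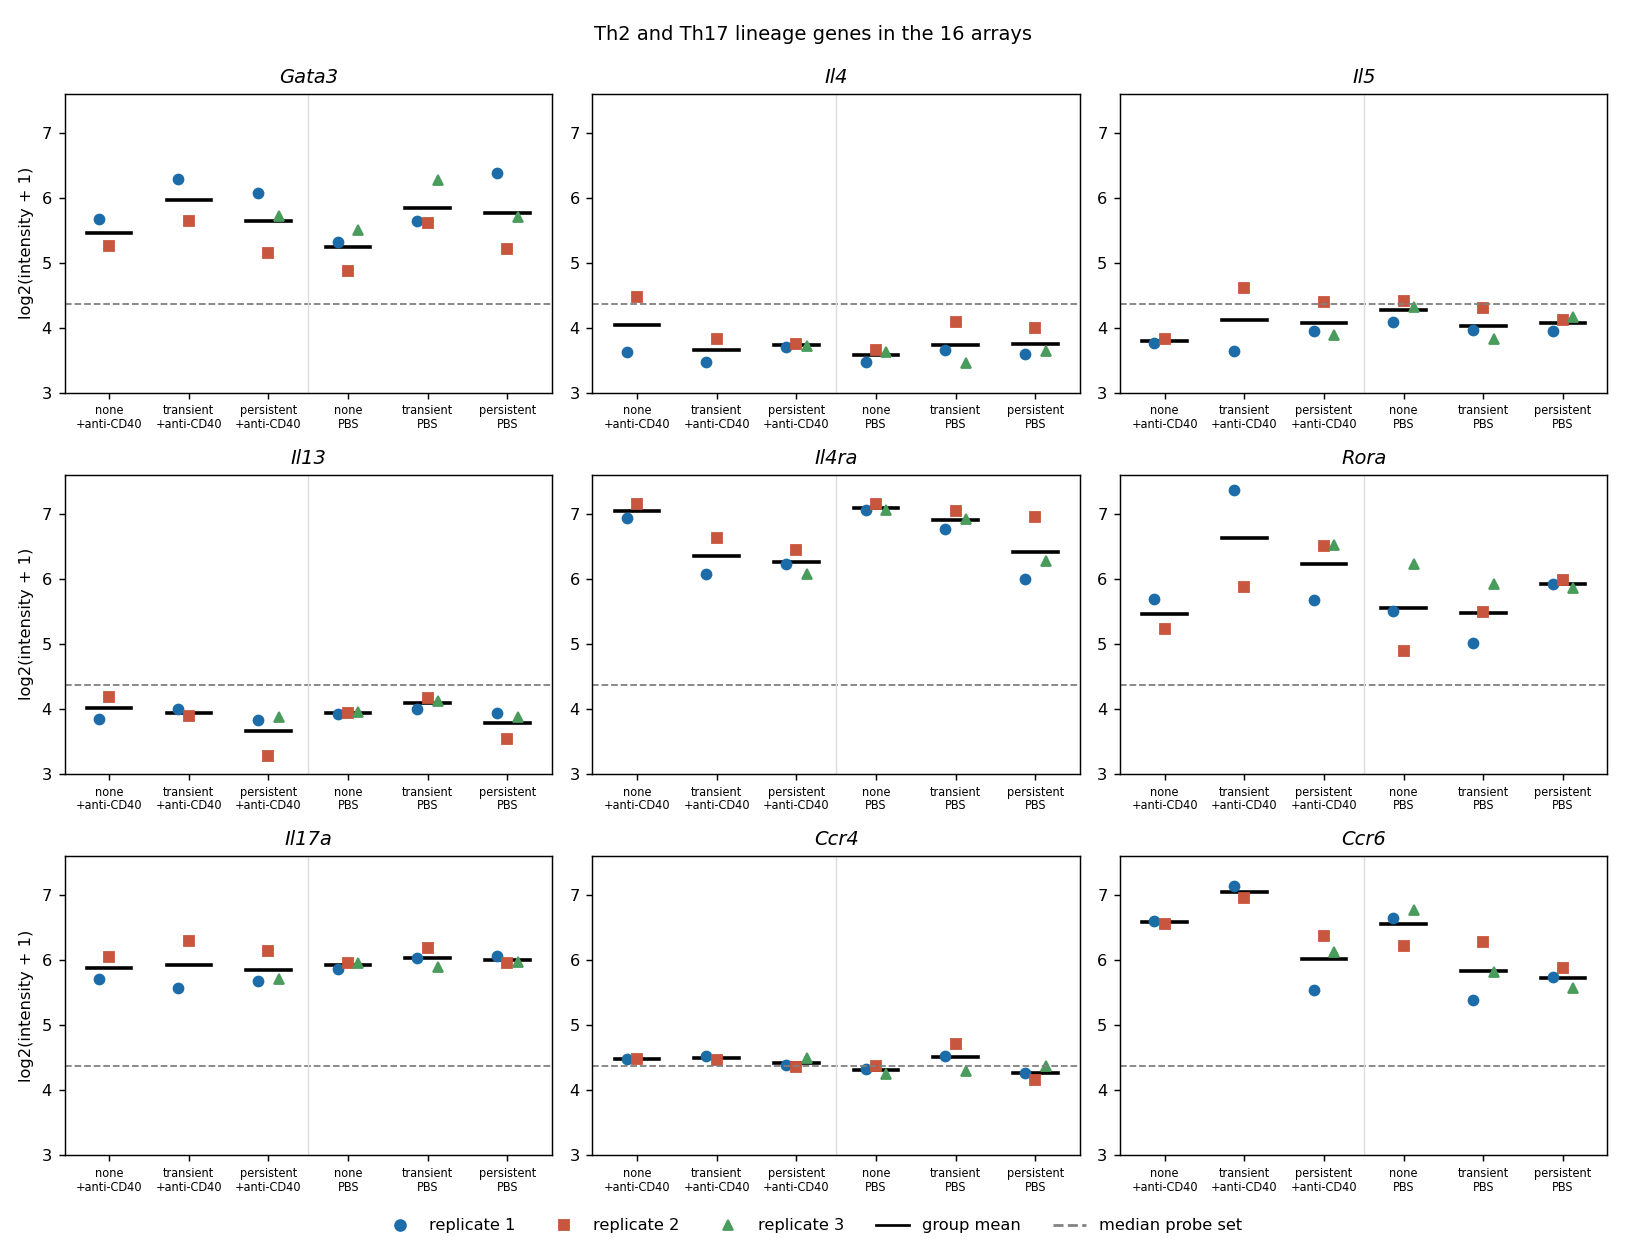
Each point is 1 array, with the level on the y axis as log2(intensity + 1), the groups on the x axis and marker shape for the replicate number. Black bars are group means and the dashed line is the median probe set at 4.37. Il4, Il5 and Il13 have every group mean below the line, and the 2 arrays of transient antigen with anti-CD40 are the highest of Ccr6, at 7.13 and 6.94.

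Gata3, the Th2 master regulator, was above the median probe set in every array. In recipients given anti-CD40 its log2 intensities were 5.67 and 5.25 without antigen, 6.28 and 5.63 with transient antigen and 6.07, 5.14 and 5.71 with persistent antigen. In recipients given PBS they were 5.33, 4.87 and 5.51 without antigen, 5.64, 5.61 and 6.27 with transient antigen and 6.37, 5.21 and 5.70 with persistent antigen. The transient PBS arrays lay above all no-antigen PBS arrays, while every pair of neighbours in the order of the group means overlapped. Gata3 differed by 0.61 ± 0.33 between transient and no antigen with PBS (adjusted p = 1.0, or ± 0.20 and 0.12 with the block). Between persistent and no antigen with PBS it differed by 0.53 ± 0.33 (adjusted p = 0.60, or ± 0.20 and 0.086 with the block). Neither difference was called, and the 95% intervals of the blocked fit over the 9 comparisons ran from -0.89 to 1.03.

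Il4, the cytokine that both drives and is made by Th2 cells, had log2 intensities between 3.46 and 4.47 over the 16 arrays. The highest value was that of replicate 2 without antigen and with anti-CD40, whose partner had 3.62. In the other groups Il4 lay between 3.47 and 3.83 with transient antigen and anti-CD40, between 3.71 and 3.76 with persistent antigen and anti-CD40, and between 3.46 and 4.09 in the 9 PBS arrays. No array of Il4 exceeded its own median probe set. The differences over the 9 comparisons were -0.40 to 0.46, with 95% intervals from -0.94 to 0.96 (smallest adjusted p = 0.60, or 0.17 with the block).

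Il5, the growth factor of eosinophils, ranged from 3.64 to 4.61, and 2 of 16 arrays exceeded their own median probe set. Its arrays without antigen did not overlap between anti-CD40 (3.77 and 3.83) and PBS (4.09, 4.41 and 4.32). This difference of -0.47 ± 0.25 was not called (adjusted p = 1.0, or -0.51 ± 0.19 and 0.90 with the block). Il13, whose product acts on epithelium and smooth muscle, ranged from 3.27 to 4.18, with both the lowest and the highest value in replicate 2 arrays. It was 3.83, 3.27 and 3.88 with persistent antigen and anti-CD40, below the 3.99 and 3.89 of transient antigen with anti-CD40. That difference was -0.28 ± 0.19 (adjusted p = 1.0, or -0.33 ± 0.18 and 0.84 with the block). The 95% intervals of Il13 over the 9 comparisons spanned -0.75 to 0.51. For these 3 cytokine genes RMA values cannot set signal apart from background, so an absence of calls does not show an absence of transcript or of change.

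Il4ra, the chain shared by the receptors for IL-4 and IL-13, was lower in groups that met antigen, except that transient antigen with PBS stayed closer to the level without antigen. In recipients given anti-CD40 its log2 intensities were 6.94 and 7.15 without antigen, 6.07 and 6.63 with transient antigen and 6.23, 6.45 and 6.08 with persistent antigen. In recipients given PBS they were 7.05, 7.15 and 7.06 without antigen, 6.76, 7.03 and 6.92 with transient antigen and 6.00, 6.96 and 6.27 with persistent antigen. All 3 comparisons named next were free of overlap between arrays, and the persistent PBS group was spread most by its replicate 2 array at 6.96.

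With the replicate block Il4ra fell by 0.68 ± 0.17 with persistent against no antigen under PBS, 1.60-fold lower (adjusted p = 0.0082, against 0.21 without the block). Under anti-CD40 it fell by 0.75 ± 0.20 with persistent antigen, 1.68-fold lower (adjusted p = 0.011, against 0.19 without the block). With transient against no antigen under anti-CD40 it fell by 0.70 ± 0.21, 1.62-fold lower (adjusted p = 0.032, against 0.43 without the block). Within replicate 1 and replicate 3, persistent minus no antigen with PBS gave -1.05 and -0.79. Replicate 2, whose arrays without antigen came from another run of array numbers, gave -0.19. With anti-CD40 the values within replicates 1 and 2 were -0.71 and -0.70 for persistent antigen and -0.87 and -0.52 for transient antigen. Here too the replicate 2 array without antigen came from another run of array numbers than those with antigen.

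Between persistent and transient antigen with PBS Il4ra differed by -0.50 ± 0.25 (adjusted p = 0.49, or ± 0.17 and 0.069 with the block), and between anti-CD40 and PBS under transient antigen by -0.56 ± 0.28 (0.60, or -0.60 ± 0.20 and 0.060 with the block). Neither was called. Without the block, persistent against no antigen with PBS was called when replicate 2 of persistent antigen with PBS was left out (-0.95, adjusted p = 0.046) and with the mean of the 3 probe sets (-0.85, 0.0040). The blocked call for persistent antigen with PBS was lost without replicate 1 of no antigen with PBS (-0.61, adjusted p = 0.057), without replicate 1 of persistent antigen with PBS (-0.52, 0.087) and in a fit of the compared groups alone (-0.68, 0.071). That for persistent antigen with anti-CD40 was lost without replicate 1 of no antigen with anti-CD40 (-0.65, 0.10) and in the compared groups alone (-0.70, 0.077). That for transient antigen with anti-CD40 was lost without any 1 of the 4 arrays compared (-0.59 to -0.80, 0.071 to 0.24) and with replicates 1 and 3 only (-0.87, 0.052).

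The probe set of Il4ra used here, 1447858_x_at, carries the suffix that Affymetrix gives to probes that may also bind other transcripts, so the other 2 were read beside it. Probe set 1421034_a_at, with a lower mean of 5.46, fell by 1.47 ± 0.20 with persistent against no antigen under PBS with the block (adjusted p = 2.5e-05, against 0.072 without it). It fell by 1.35 ± 0.23 with persistent antigen under anti-CD40 (0.00031, against 0.20) and by 1.28 ± 0.20 with persistent against transient antigen under PBS (0.00023, against 0.20). For transient against no antigen with anti-CD40 it gave -0.59 ± 0.25 (0.13 with the block). Probe set 1423996_a_at, with a mean of 5.06, gave -0.40 ± 0.15, -0.38 ± 0.18 and -0.44 ± 0.19 in the 3 comparisons in which the chosen probe set was called, and none passed (0.087, 0.16 and 0.14 with the block). The 3 probe sets had one sign in these comparisons and differed in size. In replicate 2 with PBS, 1421034_a_at read 5.87 without and 3.82 with persistent antigen, the latter below the median probe set. There 1423996_a_at read 5.05 and 5.04, and the chosen probe set 7.15 and 6.96. The small fall of the chosen probe set in replicate 2 was therefore not shared by all 3.

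**Figure D2:**
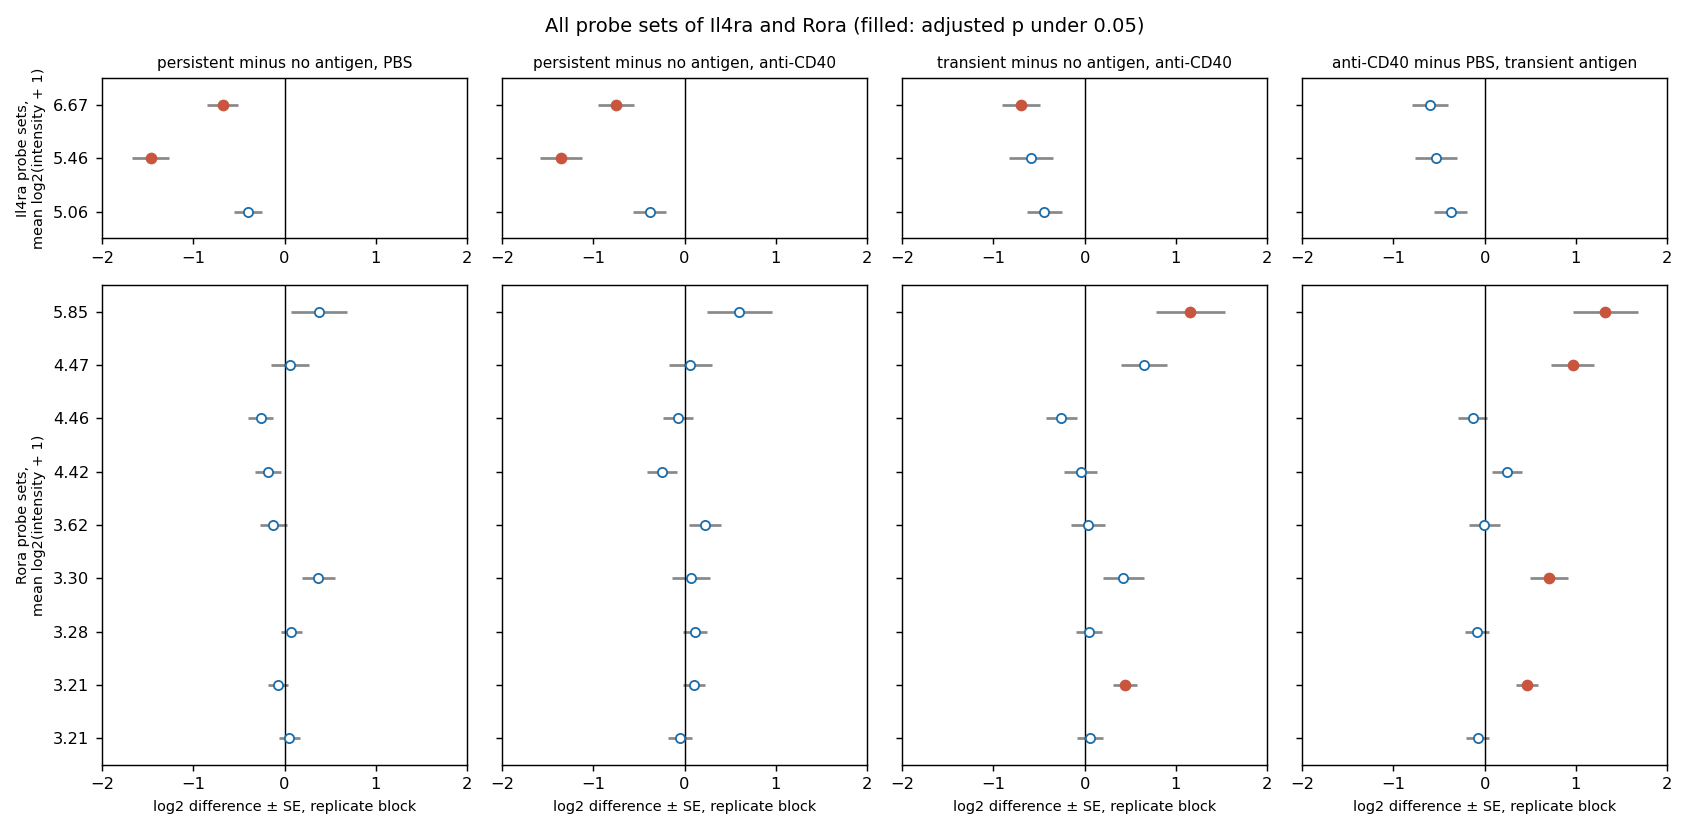
Each point is 1 probe set of Il4ra (above) or Rora (below), placed by its log2 difference with the replicate block on the x axis and ordered by its mean log2(intensity + 1) on the y axis, with standard errors as bars. Filled points had an adjusted p under 0.05. The Il4ra probe set of mean 5.46 lies at -1.47 and -1.35 for persistent antigen, further from 0 than the chosen one of mean 6.67.

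Ccr4, a receptor for the chemokines CCL17 and CCL22, stayed close to the median probe set, above it in 4 of 6 group means and in 11 of 16 arrays. In recipients given anti-CD40 it had log2 intensities of 4.47 and 4.48 without antigen, 4.53 and 4.46 with transient antigen and 4.39, 4.36 and 4.49 with persistent antigen. In recipients given PBS it had 4.32, 4.36 and 4.25 without antigen, 4.53, 4.72 and 4.30 with transient antigen and 4.27, 4.16 and 4.38 with persistent antigen. The 2 group means below the median probe set were those of no and of persistent antigen with PBS. The largest difference, persistent minus transient antigen with PBS, was -0.25 ± 0.13 (adjusted p = 0.52, or ± 0.14 and 0.29 with the block). The 95% intervals over the 9 comparisons ran from -0.52 to 0.48 without the block.

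Rora, which encodes the nuclear receptor RORα, had its highest array in transient antigen with anti-CD40. In recipients given anti-CD40 its log2 intensities were 5.69 and 5.23 without antigen, 7.37 and 5.87 with transient antigen and 5.68, 6.50 and 6.52 with persistent antigen. In recipients given PBS they were 5.51, 4.89 and 6.23 without antigen, 5.02, 5.49 and 5.91 with transient antigen and 5.92, 5.98 and 5.86 with persistent antigen. The transient anti-CD40 pair was 1.5 log2 units apart, the widest pair of that group among the members, and its replicate 2 array overlapped the transient PBS arrays.

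With the replicate block Rora rose by 1.32 ± 0.36 with anti-CD40 against PBS under transient antigen, 2.49-fold (adjusted p = 0.020, against 0.37 for 1.15 ± 0.45 without the block). It rose by 1.16 ± 0.38 with transient against no antigen under anti-CD40, 2.23-fold (adjusted p = 0.048, against 0.41 without the block). Within replicates 1 and 2 the first difference was 2.36 and 0.38 and the second 1.68 and 0.64. The value of 0.64 set arrays from different runs of array numbers against each other. Both calls rested on the replicate 1 array of transient antigen with anti-CD40, without which they were 0.54 (adjusted p = 0.65) and 0.38 (0.68). The first was also lost without replicate 1 of transient antigen with PBS (1.05, 0.14) and with the mean of the 9 probe sets (0.38, 0.10). The second held under 11 of 24 alternatives. Besides the array named it was lost without replicate 1 of no antigen with PBS, replicate 1 or 2 of no antigen with anti-CD40, replicate 2 or 3 of transient antigen with PBS, replicate 1 of persistent antigen with PBS or replicate 3 of persistent antigen with anti-CD40 (1.0 to 1.31, adjusted p = 0.054 to 0.33). It was lost too with the mean of the 9 probe sets (0.28, 0.24), a block for runs of array numbers (0.84, 0.24), no intensity trend, cyclic loess or log2(intensity + 16) (0.96 to 1.16, 0.052 to 0.068).

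Of the other Rora probe sets, 1420583_a_at (mean 4.47) rose by 0.97 ± 0.24 with anti-CD40 against PBS under transient antigen with the block (adjusted p = 0.010, against 0.17 without it). Probe sets 1436325_at (0.70 ± 0.21, 0.034) and 1455165_at (0.46 ± 0.12, 0.018) also passed there with the block, with means of 3.30 and 3.21 that lie below the median probe set. The remaining 5 lay between -0.13 and 0.24 and did not pass. Rora is a long gene with several transcripts, and which of them each probe set reads was not analysed here.

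Il17a, the signature cytokine gene of Th17 cells, was above the median probe set in all 16 arrays and had group means that spanned only 0.20 log2 units. In recipients given anti-CD40 its log2 intensities were 5.71 and 6.04 without antigen, 5.57 and 6.29 with transient antigen and 5.68, 6.14 and 5.71 with persistent antigen. In recipients given PBS they were 5.85, 5.95 and 5.95 without antigen, 6.03, 6.18 and 5.90 with transient antigen and 6.05, 5.96 and 5.97 with persistent antigen. The lowest and the highest array were the 2 of transient antigen with anti-CD40. The differences over the 9 comparisons were -0.15 to 0.12, with 95% intervals from -0.61 to 0.61 and none called (smallest adjusted p = 0.96, or 0.78 with the block). With no detection call and no second probe set, a level above the median does not by itself show that the transcript was present.

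Ccr6, the receptor for CCL20, was highest in transient antigen with anti-CD40, where its arrays lay above all arrays of every other group. In recipients given anti-CD40 its log2 intensities were 6.60 and 6.56 without antigen, 7.13 and 6.94 with transient antigen and 5.54, 6.37 and 6.13 with persistent antigen. In recipients given PBS they were 6.65, 6.22 and 6.77 without antigen, 5.39, 6.28 and 5.82 with transient antigen and 5.73, 5.88 and 5.57 with persistent antigen. The order of the group means was transient with anti-CD40, none with anti-CD40, none with PBS, persistent with anti-CD40, transient with PBS and persistent with PBS, and each neighbour after the first overlapped the next.

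With anti-CD40 against PBS under transient antigen Ccr6 rose by 1.23 ± 0.26 with the block, 2.35-fold (adjusted p = 0.0033, against 0.083 for 1.21 ± 0.29 without the block). Within replicates 1 and 2 this difference was 1.74 and 0.67, and without replicate 1 of transient antigen with anti-CD40 it was 1.0 (adjusted p = 0.14 with the block). With persistent against no antigen under PBS Ccr6 fell by 0.82 ± 0.22 with the block, 1.76-fold lower (adjusted p = 0.014, against 0.13 without it). Within replicates 1 and 3 that difference was -0.92 and -1.20, and across the array runs of replicate 2 it was -0.34. The call was lost without replicate 1 of no antigen with PBS (-0.68, adjusted p = 0.093), replicate 3 of no antigen with PBS (-0.70, 0.075) or replicate 3 of persistent antigen with PBS (-0.68, 0.099).

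Transient against no antigen gave -0.72 ± 0.26 for Ccr6 with PBS (adjusted p = 0.84, or ± 0.22 and 0.096 with the block) and 0.46 ± 0.32 with anti-CD40 (0.74, or ± 0.27 and 0.32 with the block). The difference between these effects, 1.17 ± 0.42, was not called (adjusted p = 0.86, or ± 0.35 and 0.072 with the block). Persistent against transient antigen under anti-CD40 gave -1.02 ± 0.29 (adjusted p = 1.0, or -1.05 ± 0.26 and 0.30 with the block). Over all 9 members and 3 interaction terms limma called 0 of 27 with or without the block, and 2 had an unadjusted p under 0.05 without it, both of Ccr6. The block called 0%, 3.69% and 1.79% of all genes for the terms of persistent against none, transient against none and persistent against transient.

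**Figure D3:**
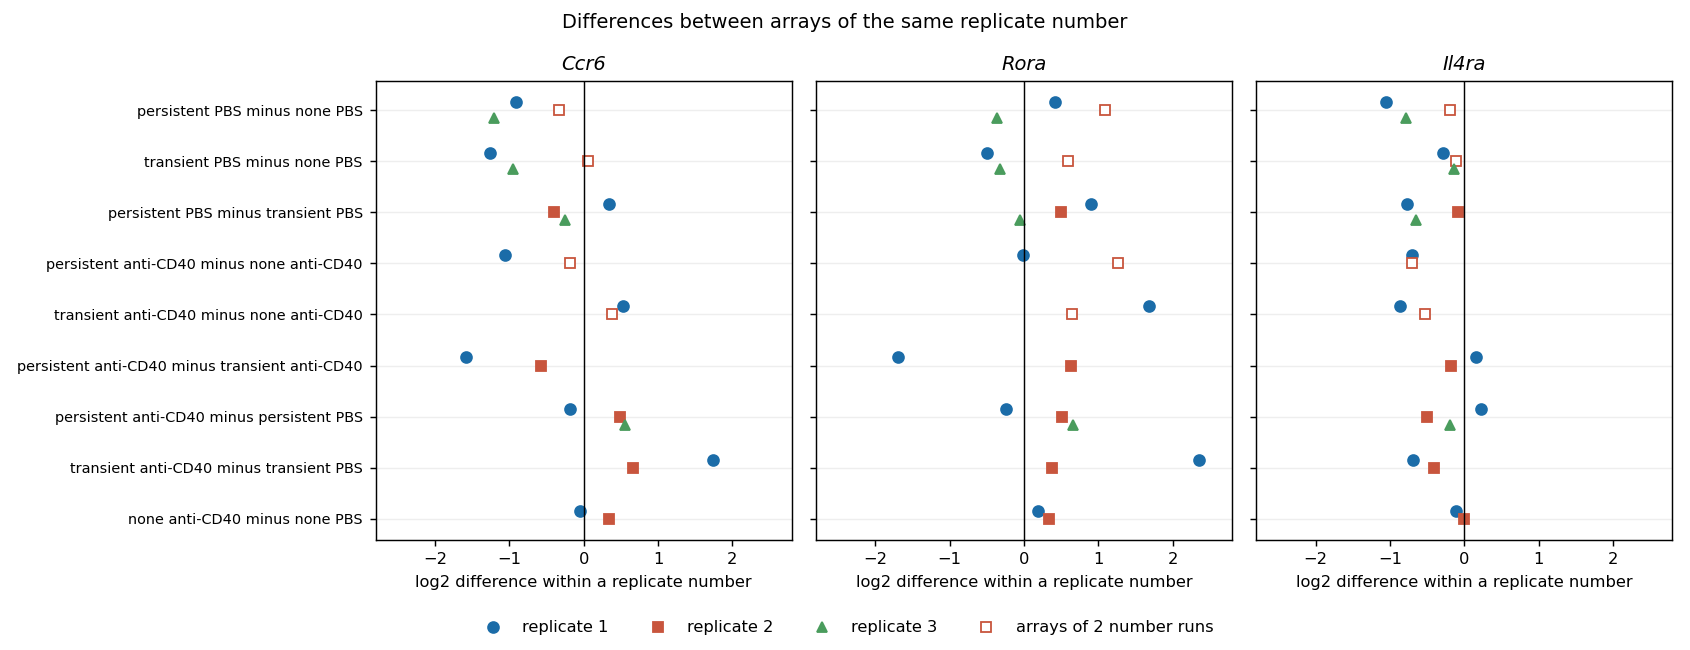
Each point is the log2 difference between 2 arrays of the same replicate number, on the x axis, for the 9 comparisons listed on the y axis. Open squares are replicate 2 pairs whose arrays came from 2 runs of consecutive array numbers. For anti-CD40 minus PBS under transient antigen the Ccr6 points lie at 1.74 and 0.67 and the Rora points at 2.36 and 0.38.

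Markers of other cells were read beside these changes because B cells and some innate-like T cells carry CCR6. The summed intensity of the 6 measured B cell markers was 337 to 382 in transient antigen with anti-CD40, against 229 to 314 with PBS, and 3 of the 6 were below the median probe set in either group. Persistent antigen with PBS, where Ccr6 was low, had 329 to 451, against 236 to 299 without antigen. Of that list Cd22 alone was called in both comparisons with the block, higher by 0.72 ± 0.22 and 1.44 ± 0.19 (adjusted p = 0.038 and 1.7e-05), and without it in the second alone (0.43 and 0.0040). The median difference of the 6 was -0.03 and 0.06, and the means of Ms4a1, the gene of CD20, were 5.91 with persistent and 6.21 without antigen under PBS. The 6 measured markers of gamma delta T cells and innate lymphoid cells summed to 192 to 197 in transient antigen with anti-CD40, inside the 162 to 230 of transient antigen with PBS. Of that list Il17rb was lower in this comparison with the block (-1.0 ± 0.25, adjusted p = 0.012). For persistent against no antigen with PBS the block called Il17rb (-0.74 ± 0.22, 0.022) and Eomes of CD8 T and NK cells (-1.32 ± 0.27, 0.0017) lower. Of the regulatory T cell markers it called Foxp3 (-0.61 ± 0.14) and Tnfrsf18 (-1.39 ± 0.27) lower, and Ctla4 (1.84 ± 0.21) and Nrp1 (2.64 ± 0.31) higher there. Without the block Nrp1 alone of these passed (0.0088). Under PBS the Foxp3 means with persistent and no antigen, 3.36 and 3.97, lay below the median probe set. So did the Il17rb mean with persistent antigen, 4.33. The 9 T cell markers summed to 7692 to 8976 in transient antigen with anti-CD40, against 10068 to 11883 with PBS. Cd5 of that list was lower there (-0.76 ± 0.19, adjusted p = 0.012 with the block) and, with the block, in the 3 comparisons in which Il4ra was called, and gave -1.54 ± 0.28 for persistent against no antigen with PBS (0.0069 without the block).

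In the anti-CD40 comparisons in which Il4ra was called, other markers changed in both directions. For transient against no antigen Ms4a1 differed by -1.66 ± 0.31 (adjusted p = 0.0011 with the block, 0.43 without it) and H2-Aa, an MHC class II chain of antigen-presenting cells, by -1.38 ± 0.30 (0.0041, 0.23). For persistent against no antigen Ms4a1 differed by -0.95 ± 0.29 (0.029, 0.55) and the B cell kinase gene Blk by -0.62 ± 0.19 (0.031, 0.56), while Cd22 was higher in both. With transient and persistent antigen the block also called Eomes lower (-1.42 ± 0.33 and -1.35 ± 0.31). It called Ctla4 (1.44 ± 0.25 and 1.31 ± 0.24) and Nrp1 (1.82 ± 0.38 and 2.23 ± 0.35) higher. With transient antigen alone it called Ikzf2 lower (-1.98 ± 0.40) and Il2ra higher (0.68 ± 0.20). The 10 dendritic cell and macrophage markers summed to 272 to 377 with transient and 313 to 442 with persistent antigen, against 443 to 468 without antigen. Of these 10 the block called H2-Aa alone, and with transient antigen only. The part of all these markers in the results of Ccr6, Rora and Il4ra was not tested.

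**Figure D4:**
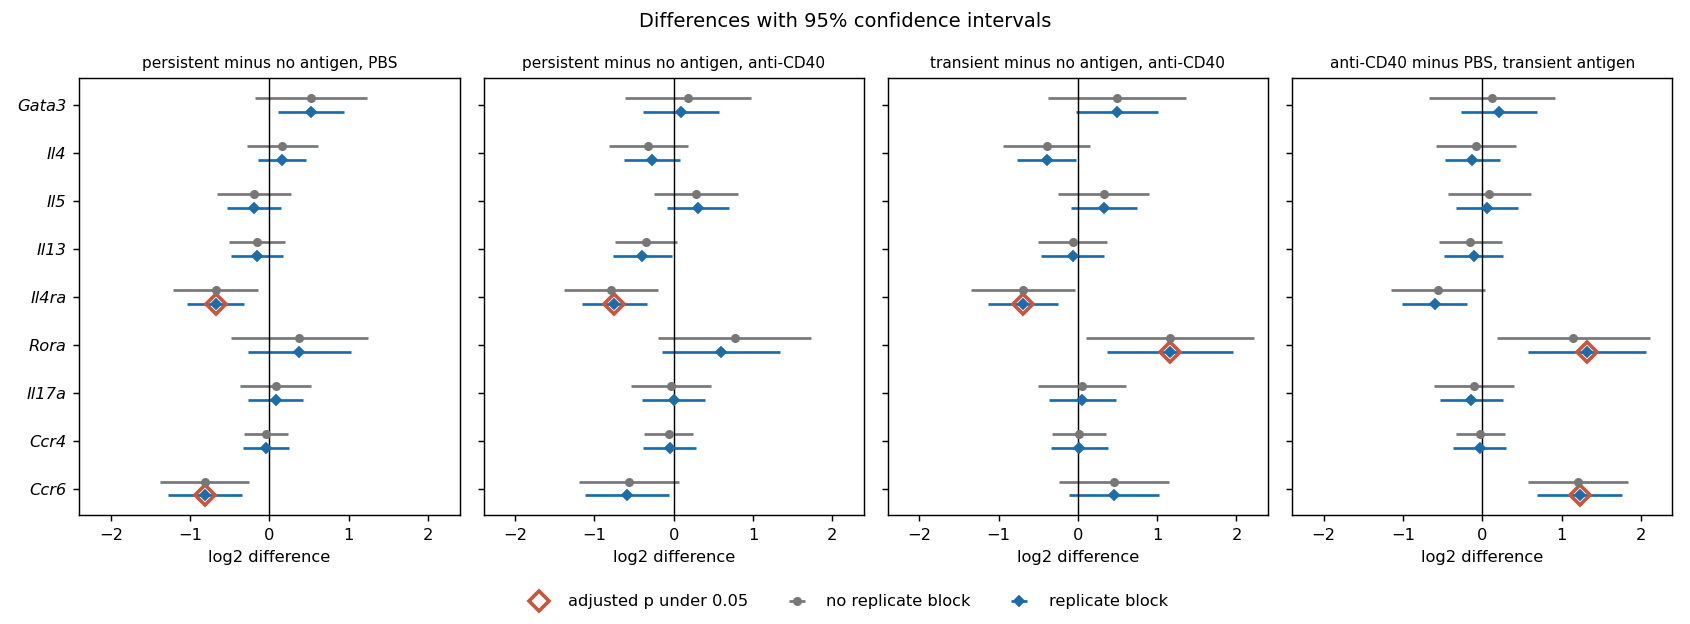
Points are log2 differences, on the x axis, of the 9 members in the 4 comparisons in which a member was called, with 95% confidence intervals from limma, in grey without and in blue with the replicate block. Red diamonds mark an adjusted p under 0.05. All 7 diamonds sit on blue points, at Il4ra, Rora and Ccr6.

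Where the arrays of 2 groups did not overlap, members were counted beside the share of all genes. For persistent against no antigen with PBS these were Il4ra, Il17a and Ccr6 (18% of all genes), and for transient against no antigen with PBS Gata3, Il13 and Il4ra (10.1%). Persistent against transient antigen with PBS had Il13 (17.5%). With anti-CD40 they were Il5, Il4ra and Ccr6 for persistent against no antigen (27.7%), Il4ra, Rora and Ccr6 for transient against no antigen (28.2%) and Il13 and Ccr6 for persistent against transient antigen (12.2%). Anti-CD40 against PBS gave none under persistent antigen (3.48%), Il4ra and Ccr6 under transient antigen (21.6%) and Il5 and Ccr4 without antigen (10.8%).

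Other genes of the Th2 pathway, 28 measured of 32 listed, moved in both directions. Without the block 1 rose and 1 fell with persistent against no antigen, both with PBS and with anti-CD40, and 0 were called in the other comparisons. Over all genes 2.2% rose and 1.36% fell with PBS, and 1.64% and 0.737% with anti-CD40. Maf, a transcription factor that promotes Il4 transcription in Th2 cells and is also high in follicular helper cells, rose by 4.29 ± 0.52 with PBS (adjusted p = 0.00063) and by 3.15 ± 0.58 with anti-CD40 (0.014). Satb1, a chromatin organiser at the Th2 cytokine locus that is also high in naive T cells, gave -1.18 ± 0.21 (0.0052) and -1.04 ± 0.23 (0.033). The median difference of the list was -0.09 and -0.13 in these comparisons, against -0.03 over all genes in each.

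With the block the Th2 list had 5 higher and 6 lower genes for persistent against no antigen with PBS and 5 and 5 with anti-CD40. Over all genes 9.93% were higher and 6.79% lower with PBS, and 10.9% and 5.5% with anti-CD40. Stat6, which carries the signal of the IL-4 receptor, was lower there, by -0.70 ± 0.19 with PBS (adjusted p = 0.015) and -0.68 ± 0.22 with anti-CD40 (0.042), in the same comparisons as Il4ra. Il10, the cytokine that dampens antigen presentation, was higher by 0.68 ± 0.17 (0.0092) and 0.93 ± 0.20 (0.0025). Under transient antigen, anti-CD40 against PBS had 2 higher and 3 lower genes, beside 7.59% and 2.92% of all genes. The lower ones included Il17rb, a chain of the IL-25 receptor (-1.0 ± 0.25, 0.012), and Crlf2, a chain of the receptor for thymic stromal lymphopoietin (-0.89 ± 0.18, 0.0024). The Il17rb mean with transient antigen and anti-CD40, 4.21, lay below the median probe set. Without the block the adjusted p of these Stat6, Il10, Il17rb and Crlf2 differences were 0.076 to 0.52.

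Other genes of the Th17 pathway, 25 measured of 29 listed, did likewise, and the rest of the list was not analysed here. Without the block 2 rose and 2 fell with persistent against no antigen under PBS, beside 2.2% and 1.36% of all genes. Il21, a cytokine that sustains Th17 cells and is made by follicular helper cells too, rose by 4.60 ± 0.60 (adjusted p = 0.00075), and Il12rb1, a chain of the IL-12 and IL-23 receptors, by 0.71 ± 0.18 (0.042). Il6st, the signalling chain of the IL-6 receptor, fell by 2.06 ± 0.38 (0.0070), and Tgfbr2, a receptor chain for TGF-beta, by 1.42 ± 0.23 (0.0030). With anti-CD40 1 rose and 2 fell for persistent against no antigen, Il21 by 3.59 ± 0.67 (0.014), Il6st at -1.88 ± 0.43 (0.035) and Tgfbr2 at -1.35 ± 0.26 (0.015). Of all genes 1.64% rose and 0.737% fell there. Il17a was called in neither comparison.

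Ahr, the ligand-activated receptor that augments Th17 cytokines, rose by 2.60 ± 0.38 with anti-CD40 against PBS under transient antigen (adjusted p = 0.011) and by 2.17 ± 0.41 with transient against no antigen under anti-CD40 (0.034). With the block Rora was called in these comparisons, and Ahr in these, in persistent against no antigen under anti-CD40 (1.47 ± 0.34, 0.0043) and in persistent against transient antigen under PBS (0.96 ± 0.29, 0.040), where Rora was not. Il21 rose by 3.42 ± 0.67 in the first of them (0.038) and by 4.59 ± 0.60 with persistent against transient antigen under PBS (0.0031), and its means without antigen and with transient antigen under PBS, 4.06 and 4.07, lay below the median probe set. With the block 3 Th17 genes were higher and 4 lower for anti-CD40 against PBS under transient antigen, beside 7.59% and 2.92% of all genes. The lower ones included Il6ra (-1.21 ± 0.30, 0.012, against 0.46 without the block) and Runx1 (-0.88 ± 0.20, 0.0072, against 0.42). For persistent against no antigen 6 were higher and 4 lower with PBS (9.93% and 6.79% of all genes). With anti-CD40 it was 7 and 4 (10.9% and 5.5%), and 7 and 4 for transient against no antigen (10.5% and 3.48%). The block also called the Ahr interaction of transient against no antigen (2.78 ± 0.46, 0.0037, against 0.57 without it) and the Il21 interaction of persistent against transient antigen (-2.98 ± 0.52, 0.0087, against 0.98).

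**Figure D5:**
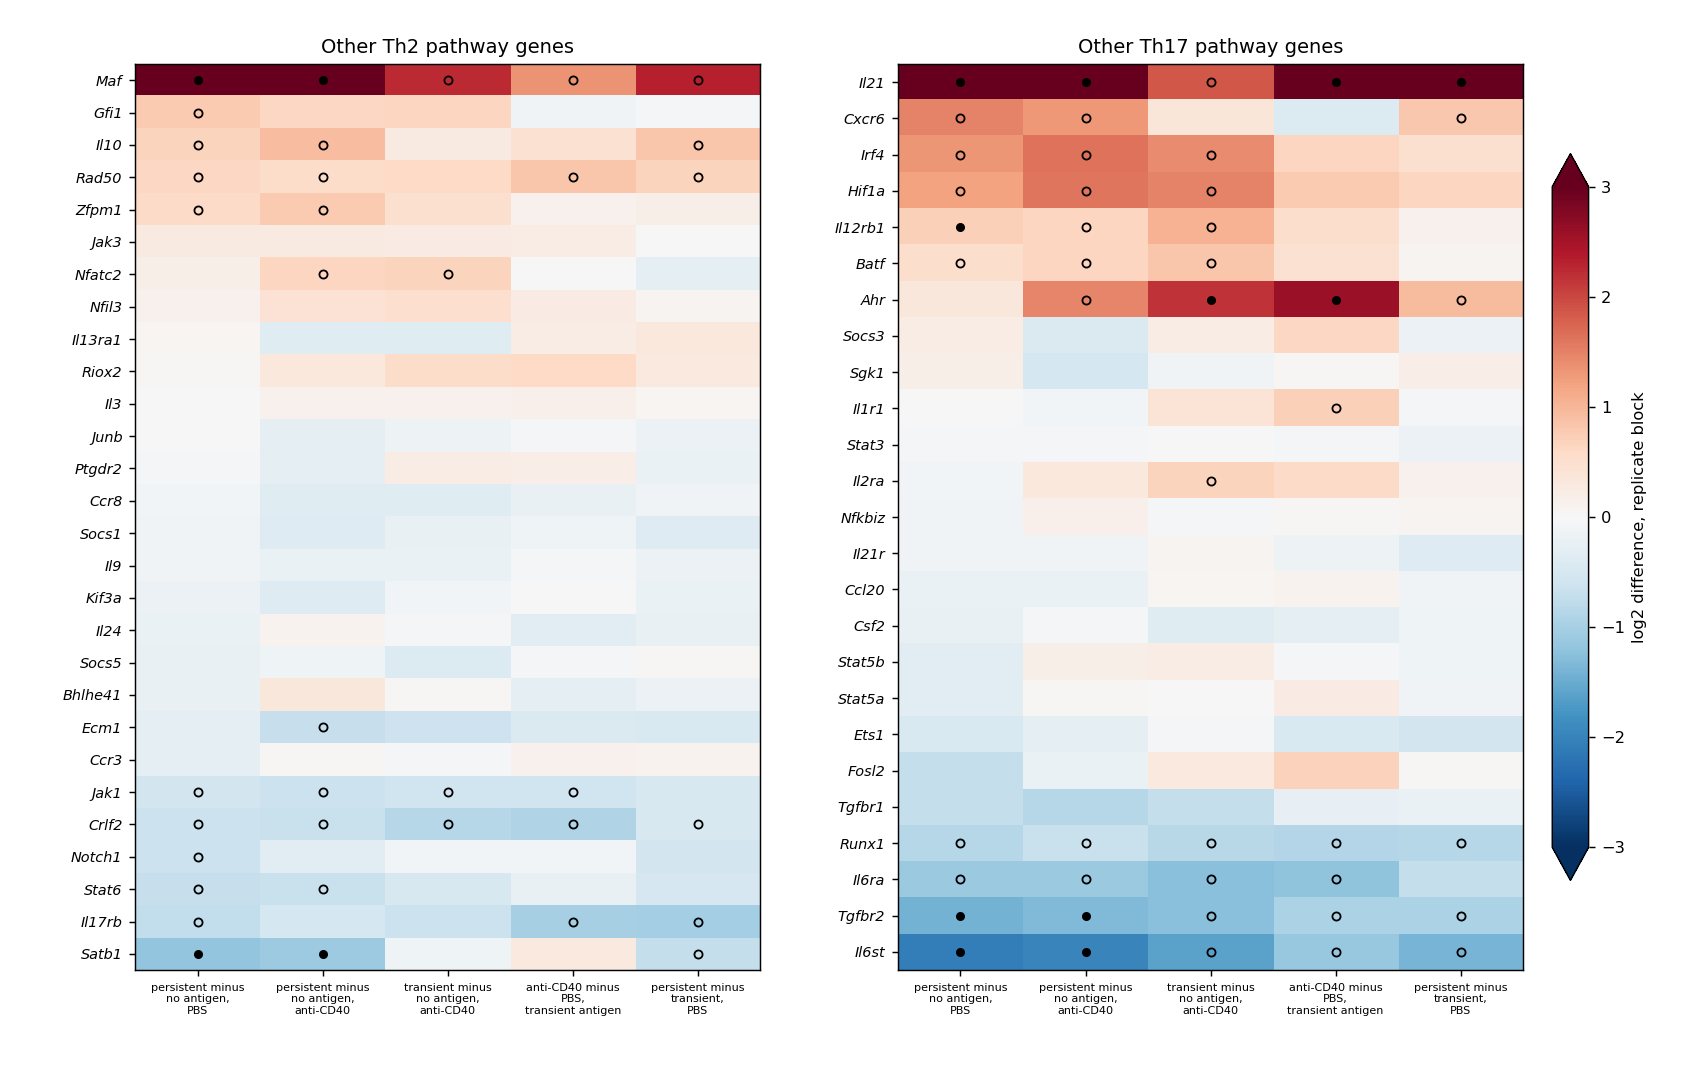
Rows are the other genes of the Th2 and Th17 pathways, columns are 5 comparisons, and colour is the log2 difference with the replicate block, capped at 3 in either direction. Filled circles mark genes called without the block and open circles those called with the block alone. Maf at 4.29 and Il21 at 4.60 are the darkest cells for persistent against no antigen with PBS, and Il6st and Tgfbr2 are lower in all 5 columns.

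Genes with the most similar pattern were sought for the 6 members with a group mean above the median probe set, by Pearson correlation over the 16 arrays after removal of the replicate effect, among 11058 genes. The arrays share 6 groups and the replicate structure, and the values are descriptions. Nearest to Il4ra were Hcst (r = 0.98), Mgst2 (0.97) and Mturn (0.97). Nearest to Rora were Nop16, Mrps18b and Tufm (each 0.93), and nearest to Ccr6 were Spata5l1 (0.93), Bzw2 (0.87) and Carm1 (0.87). Gata3 had Lamb2 (0.88), Wdr70 (0.84) and Mterf4 (0.84), and Ccr4 had Gal3st1 (0.90), Sgsm3 (0.89) and Psors1c2 (0.86). Il17a had the lowest values, with Chrng (0.75), Atp1b3 (0.73) and Slamf9 (0.71).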

How the data were processed

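Biotin-labelled RNA of sorted AND T cells, from a 2-round amplification, was hybridised, per the labels' protocols. The authors deposited 1 intensity per probe set and array. The submitters' processing notes name RMA, with no version given in the sources used here. The values were read as linear, and log2(intensity + 1) was computed from the deposited intensities without renormalization. Of 45101 probe sets 34945 had 1 gene symbol in the platform annotation, 932 had several, 9211 were not listed and 64 were controls, giving 18193 genes, each represented by its probe set of highest mean.

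One limma 3.58.1 model of 6 group means over 16 arrays (R 4.3.3) used an intensity trend and no block, with Benjamini-Hochberg adjustment over all genes. Array deviations from their group mean had correlations of 0.48 to 0.81 in the 36 array pairs that shared a replicate number, with a median of 0.68. In the 70 others they were -0.81 to 0.60, with a median of -0.53, so the ranges overlapped. Deviations within a group cancel out, so the negative values of unlike numbers follow in part from the centring and are not separate support. Each of the 16 arrays correlated best with its own number. The numbers were therefore taken, from the data, to pair the arrays. No arrays were identical (highest r within a group 0.987).

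The members, gene lists, tests and most alternatives were chosen with earlier results of these data known, and the alternatives of the blocked fit were added after its values were seen. Text names all members, up to 4 genes per pathway list and direction past the threshold by size of difference (examples from the blocked fit were added after seeing values) and the 3 most correlated genes per member. The model was tested on simulated data.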

Additional observations from a re-analysis of the deposited data

How the results depend on the processing

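The fit without the block was the reference for 2904 member differences under an alternative setting. Of these, 2873 kept their side of the threshold, 31 passed it where they had not, and 0 were reversed. That fit called no member, so no call could be lost, and the count does not measure stability. In 213 uncalled differences the sign changed. The 7 calls of the blocked fit held under 11 to 23 of 24 alternatives each. With the settings as reported and no block, the count of members called was 0 in every comparison, and it moved as follows. The replicate block gave 2 for persistent against no antigen with PBS, 1 for the same with anti-CD40, 2 for transient against no antigen with anti-CD40 and 2 for anti-CD40 against PBS under transient antigen, and the block changed no other count. A block for runs of array numbers gave 2, 2, 1 and 3 in these, and 1 (Ccr6) for transient against no antigen with PBS. Replicates 1 and 3 only gave 2 for persistent against no antigen with PBS and 2 for anti-CD40 against PBS under transient antigen. The mean of probe sets gave 1 (Il4ra) for persistent against no antigen with PBS, for the same with anti-CD40 and for persistent against transient antigen with PBS. Leaving out each array gave 0 to 1 for persistent against no antigen with PBS and 0 elsewhere.

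With the replicate block kept, the compared groups alone gave 1 for persistent against no antigen with PBS and 0 with anti-CD40. Replicates 1 and 3 only gave 1 for transient against no antigen with either treatment, 1 for persistent against transient antigen with PBS and 2 with anti-CD40, 2 for persistent against no antigen with anti-CD40 and 2 (Ccr6 and Rora) for the interactions of transient against none and of persistent against transient. Runs of array numbers gave 1 for transient against no antigen with either treatment and 2 for persistent against no antigen with anti-CD40. Persistent against transient antigen with PBS gained 1 (Il4ra) with no trend, with dim genes left out and with the mean of probe sets. For transient against no antigen with anti-CD40, 1 was called (Il4ra) with no trend, the mean of probe sets, cyclic loess or log2(intensity + 16). Leaving out each array gave 0 to 3 for persistent against no antigen with PBS, 0 to 1 for transient against no antigen with PBS and for persistent against transient antigen with PBS, 1 for persistent against no antigen with anti-CD40, 0 to 2 for transient against no antigen with anti-CD40, 0 to 3 for anti-CD40 against PBS under transient antigen, 0 to 1 for the interaction of transient against none and 0 elsewhere. The genes called changed as well as the counts. Gata3 was called higher for transient against no antigen with PBS without replicate 1 of transient antigen with PBS. Leaving out replicate 1 of no antigen with anti-CD40 left 1 array in that group. In that fit Il4 was called lower for transient against no antigen with anti-CD40, and the member called for persistent against no antigen was not Il4ra. The cause of these changes was not tested. Groups of 2 arrays, left with 1, are assumed to vary like the others. RMA values carry no detection call, so Il4, Il5, Il13 and the lower Ccr4 groups cannot be set apart from background.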

Other observations

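The 6 replicate 2 arrays had 3.66 to 4.47 for Il4 on the log2 scale, against 3.46 to 3.72 in the other 10, and Il17a had 5.95 to 6.29 against 5.57 to 6.05. Il13 had its lowest array, 3.27, and its highest, 4.18, both in replicate 2. These ranges were noticed after the values were seen and carry no test.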
